A study of Mus musculus with 168 samples.

Results

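Peritoneal macrophages were taken 18 h after a single gavage of the JAK inhibitor SB00526222 and set against peritoneal macrophages of vehicle-treated mice taken 18 or 19 h after the last gavage. The members are the arrays labelled with this compound, a single treatment, the peritoneal cavity, the cell type MF and 18 h, which are 4 of the 168 arrays of the series. The vehicle group has 3 arrays, so the comparison rests on 7. All mice were male C57BL/6 aged 6 weeks, with no genetic modification given in the labels. Macrophages of both groups were sorted as F4/80+ ICAM2+ cells, and the RNA was hybridised to Affymetrix Mouse Gene 1.0 ST arrays.

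The SB00526222 group holds replicates 1 and 2 from experiment J23 and replicates 3 and 4 from experiment J25, each after 1 treatment. Further groups taken at 18 h were SB00526222 after 14 treatments (2 arrays, J25) and SB00513404, another JAK inhibitor known here only by its code, after 1 treatment (3 arrays, 1 from J23 and 2 from J25). SB00526222 taken early has 3 arrays, 2 of J12 at 3 h and 1 of J23 at 6 h. The vehicle was 0.5% MC (methylcellulose). The late vehicle group is mixed: replicate 1 is from J23, 19 h after 1 treatment, and replicates 2 and 3 are from J25, 18 h after the last of 14 treatments. Vehicle taken early has 6 arrays, 3 of J12 at 3 h, 1 of J23 at 6 h and 2 of J25 at 3 h. In the late vehicle group the number of treatments and the experiment cannot be told apart. Early arrays of J12 were sorted on F4/80 alone. The labels give no dose for either compound. They do not say whether arrays of a group come from separate animals, so the p-values cover only the scatter seen among the arrays, which may be technical.

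Janus kinases (JAK1, JAK2, JAK3 and TYK2) sit on the inner tails of cytokine receptors and phosphorylate STAT transcription factors when a ligand binds. Type I interferon receptors use JAK1 and TYK2 to activate a complex that holds STAT2 and IRF9 and switches on the antiviral interferon-stimulated genes. Macrophages transcribe these genes at a low level even without infection, because of a steady supply of interferon. Large resident macrophages of the mouse peritoneal cavity are marked by F4/80, ICAM2 and the transcription factor GATA6.

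Values are log2 of the deposited intensity per gene throughout, and a difference is SB00526222 minus the other group unless stated otherwise. The sorted cells carried the markers of their label. Adgre1, which encodes F4/80, averaged 12.62 ± 0.10 with SB00526222 (SD, n = 4) and 12.59 ± 0.14 with vehicle (SD, n = 3). Icam2, the adhesion molecule of the sort, averaged 11.24 ± 0.31 and 11.20 ± 0.49 in the same order. Gata6 averaged 11.27 ± 0.09 with SB00526222 and 11.29 ± 0.08 with vehicle. For markers of other cells the ranges of the 2 groups overlapped. The mean over 11 B cell markers was 6.30 to 6.47 with SB00526222 and 6.32 to 6.45 with vehicle, and over 10 T cell markers 6.229 to 6.295 and 6.199 to 6.306. None of the 9 NK cell markers or 10 granulocyte markers was bright enough to be tested. The 13 measured markers of small peritoneal macrophages, monocytes and dendritic cells averaged 7.61 to 7.68 with SB00526222 and 7.51 to 7.69 with vehicle, above the median intensity of an array. Among tested members, 3 of 4 B cell markers were lower with SB00526222 (median -0.18) and 5 of 7 of the small macrophage, monocyte and dendritic markers were higher (median 0.05), none of them past an unadjusted p of 0.05.

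Some arrays stood apart from the others of their group. On the first principal component of the 33 peritoneal arrays, which held 38.6% of the variance, SB00526222 replicate 3 scored 25.65 while the other 3 scored between -9.89 and 5.32. Vehicle replicate 3 scored 25.04, against -10.65 and -5.42 for the other vehicle arrays. Both are from J25, and the comparison with vehicle was also made without them. Among the early vehicle arrays, replicate 4 (J23, 6 h) scored 30.64, while the others scored between -12.73 and 3.82. Its median correlation with the other peritoneal arrays, 0.9717, was the lowest of the 33.

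At 18 h no gene differed between SB00526222 and vehicle past the threshold (limma, Benjamini-Hochberg adjusted p of 0.05). Of 10871 genes tested, 0 were called in either direction, and the smallest adjusted p was 0.9998. At an unadjusted p of 0.05, 28 genes were higher (0.258%) and 43 were lower (0.396%), together 71 (0.653%). That is less than the share of 0.05 expected if no gene differed, so these p-values ran large. The 0 calls therefore do not show that no gene differed. On the 7 arrays alone 173 genes were under 0.05, and 69 without the 2 late arrays standing apart, with 0 called in both. The 95% confidence interval of the difference lay within ±1 for 10829 genes (99.6%) and within ±0.5 for 9528 genes (87.6%). A difference larger than 0.5 was therefore outside the interval for most genes tested, and the median half-width of the interval was 0.263. By sign, 6479 genes (59.6%) lay below 0 and the median over all genes was -0.02. After quantile normalization 50.5% lay below 0, with a median of -0.001, and 29 of 37 interferon-stimulated genes did (median -0.10). With arrays weighted by their quality 2 genes were called, Luzp1 at -0.52 and Rhoc, named after its values were seen, at 0.47 (adjusted p = 0.0493 for both by limma), and 1044 had an unadjusted p under 0.05. In sorted cells a lower level can be fewer expressing cells or less RNA per cell, and these arrays cannot tell them apart.

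**Figure D1:**
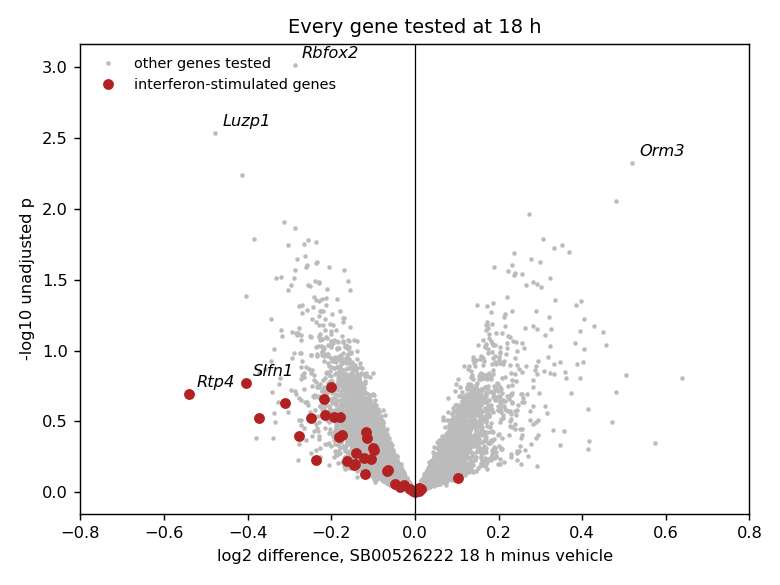
Each point is 1 of 10871 genes. The x axis is the log2 difference of SB00526222 at 18 h minus vehicle, the y axis is -log10 of the unadjusted p, and red points are the 37 tested interferon-stimulated genes, most of which lie left of 0 and low on the y axis, with Rtp4 the farthest left at -0.54.

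Interferon-stimulated genes are one readout of the kinases that a JAK inhibitor targets. Of 48 members of the list, 43 were measured and 37 were bright enough to test. None of the 37 passed the test, and 0 reached an unadjusted p of 0.05 in either direction. By sign, 33 members were lower and 4 were higher, with a median difference of -0.12, where 59.6% of all genes tested were lower with a median of -0.02. The interval lay within ±1 for 34 of the 37. Without SB00526222 replicate 3 and vehicle replicate 3, which stood apart, 35 of the 37 were lower (median -0.15), as were 61.1% of all genes. The members are regulated together, so their signs are not independent of each other, and the list was chosen with earlier results of these data known.

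The same lean appeared in each experiment. Within J23, 33 of the 37 were lower (median -0.15, against 58% of all genes), and within J25 27 were lower (median -0.09, against 58.6% of all genes). In both experiments at once 25 of the 37 were lower, as were 33.9% of all genes. The mean of the 43 measured members was 8.15, 8.18, 8.26 and 8.33 in the SB00526222 arrays and 8.32, 8.34 and 8.37 in the vehicle arrays. The highest SB00526222 array lay just above the lowest vehicle array, so the groups overlapped on this mean.

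Rtp4, an interferon-induced gene for a receptor transporter protein, showed the widest gap of the list. Its log2 intensity was 8.87, 8.90, 8.82 and 8.99 with SB00526222 and 9.29, 9.41 and 9.42 with vehicle. All 4 treated arrays lay below all 3 vehicle arrays, as they did for 0.966% of all genes tested. The difference was -0.54 (SE 0.41, 95% interval -1.39 to 0.31, adjusted p = 0.9998 by limma). It was -0.41 within J23 and -0.51 within J25. The spread is estimated over all peritoneal groups, and Rtp4 lay between 7.28 and 9.70 in the SB00513404 arrays and at 9.74 and 8.57 after 14 treatments. Fitted on the 7 arrays alone, the difference was -0.47 with an SE of 0.08 and an adjusted p of 0.9997 by limma.

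Groups without overlap were also found for 4 other members, and for no member in the opposite direction. Oasl2 and Oas1a belong to the oligoadenylate synthetase family, Oas1a being one of its RNA-sensing enzymes, and Ddx58 and Ifih1 encode the viral RNA sensors RIG-I and MDA5. Oas1a and Ifih1 were chosen for mention after their values were seen. Oasl2 was at 8.92, 9.11, 9.33 and 9.35 with SB00526222 and 9.36, 9.36 and 9.77 with vehicle, a difference of -0.37 (SE 0.35). Ddx58 was at 9.39, 9.55, 9.50 and 9.50 with SB00526222 and 9.61, 9.62 and 9.76 with vehicle, a difference of -0.20 (SE 0.15). The gaps were narrow for Oas1a (difference -0.21, SE 0.20) and Ifih1 (difference -0.10, SE 0.14). In total 5 of 37 members did not overlap and were lower (background 0.966%), and 0 did not overlap and were higher (background 0.718%).

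**Figure D2:**
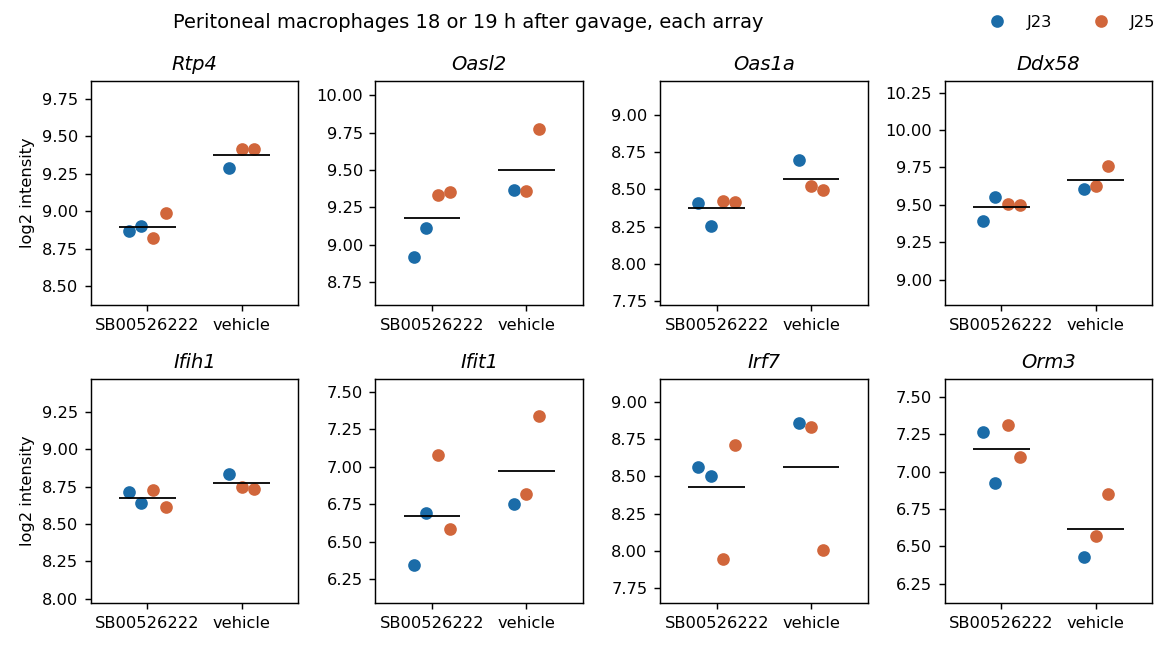
The y axis is log2 intensity, each point is 1 array (blue J23, orange J25), the bar is the group mean, and every panel spans 1.5 units. SB00526222 at 18 h stands left of vehicle, and the groups do not overlap for Rtp4, Oasl2, Oas1a, Ddx58, Ifih1 and Orm3, while they do for Ifit1 and Irf7.

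Other well-known members overlapped. Slfn1, a member of the schlafen family, was at 9.11, 9.62, 9.95 and 9.86 with SB00526222 and at 9.74, 9.91 and 10.48 with vehicle (difference -0.40, SE 0.29). Ifit1, which binds foreign RNA, was at 6.34, 6.69, 7.08 and 6.584 with SB00526222 and at 6.75, 6.82 and 7.34 with vehicle (difference -0.31, SE 0.25). Irf7, the transcription factor that amplifies interferon production, was at 8.56, 8.50, 7.95 and 8.7102 with SB00526222 and at 8.86, 8.83 and 8.01 with vehicle (difference -0.16, SE 0.31). In both groups replicate 3 was the lowest for Irf7. Ifi27l2a differed by -0.12 (SE 0.36). Stat2 and Irf9, which encode parts of the interferon-activated complex, differed by -0.18 (SE 0.20) and by less than 0.01 (95% interval -0.36 to 0.35).

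The promoters of these genes are shown because that complex binds DNA at a repeat of GAAA. The motif searched was GAAA, any 2 bases and GAAA again, on both strands, in the 250 bases before each gene's start in the RefSeq promoters of GRCm38.p6. Of the 37 tested members 28 had a promoter in the table, and 10 of these (35.7%) held the motif, as did 978 of all 32851 promoters (2.98%). The stretches of 30 bases from 3 of them follow, 5′ to 3′ on the strand of the gene, with each match in capitals. In Oas1a 2 matches overlap, and in Ifit1 and Stat2 each match reads TTTC, 2 bases and TTTC, the same motif on the opposite strand.
Oas1a (chr5:120907526-120907555, minus strand): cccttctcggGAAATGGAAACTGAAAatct
Ifit1 (chr19:34640785-34640814, plus strand): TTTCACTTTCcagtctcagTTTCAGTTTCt
Stat2 (chr10:128270266-128270295, plus strand): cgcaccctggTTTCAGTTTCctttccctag
Oasl2, Ddx58 and Ifih1 had no match in their 250 bases, and Rtp4 had no entry. A match in these letters is a description of the window and does not show binding.

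The kinases and their circuit showed no called change. Jak1 averaged 10.91 ± 0.10 with SB00526222 (SD, n = 4) and 10.90 ± 0.15 with vehicle (SD, n = 3), with a 95% interval of the difference from -0.18 to 0.17. Jak2 averaged 9.01 ± 0.24 and 9.11 ± 0.13 (interval -0.37 to 0.19), and Tyk2 9.27 ± 0.18 and 9.27 ± 0.28 (interval -0.28 to 0.28), in the same order. Of 9 tested JAK and STAT genes 6 were lower and 3 higher, with a median of -0.03. Stat3 averaged 10.41 ± 0.11 with SB00526222 and 10.48 ± 0.16 with vehicle. Stat5a, which acts downstream of growth factor and cytokine receptors, differed by -0.10 (SE 0.08).

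Receptors and feedback genes were as flat. Of 18 receptors that signal through JAK kinases 9 were lower and 9 higher (median 0.00), among them Il6st, the shared signal chain of the interleukin-6 family, at a difference of -0.14. Of 14 feedback inhibitors and PIM kinases, which JAK signals normally induce, 8 were lower and 6 higher (median -0.01). Socs1 was at 7.53, 7.48, 7.19 and 7.13 with SB00526222 and at 7.39, 7.22 and 7.01 with vehicle, a difference of 0.09 (SE 0.15). Socs3 averaged 8.76 ± 0.41 with SB00526222 and 8.77 ± 0.49 with vehicle, and Pim1 8.6501 ± 0.47 and 8.6921 ± 0.56. Socs5 had the largest statistic of this group, at -0.21 (SE 0.12).

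STAT3 targets numbered 15 tested genes, of which 10 were lower and 5 higher, with a median of -0.06. Ier3, an immediate early gene of this list, was at 8.23, 8.14, 8.51 and 7.97 with SB00526222 and at 8.666, 8.34 and 8.56 with vehicle. Its difference of -0.33 had an unadjusted p of 0.031, the only one of the list under 0.05, and the groups overlapped. STAT6 targets and alternative activation genes leaned the other way, with 10 of 12 higher and a median of 0.07, against 40.4% of all genes higher. Arg1, the arginase of alternatively activated macrophages, was at 10.26, 9.87, 9.88 and 10.32 with SB00526222 and at 9.47, 9.69 and 10.21 with vehicle (difference 0.37, SE 0.28). Cd209a, a C-type lectin, differed by 0.36, and neither passed the test.

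Antigen presentation and interferon-gamma targets showed small differences only. MHC class II genes split, with 5 of 8 lower and 3 higher (median -0.12), and their median was 0.18 within J23 and -0.24 within J25, of opposite sign. H2-Ob, a chain of the class II chaperone H2-O, was higher in all 4 arrays, by 0.16, as for 0.718% of all genes tested. Its gap was narrow, from 200.6 in vehicle replicate 2 to 203 in SB00526222 replicate 4 before log2. Of 12 MHC class I and immunoproteasome genes 7 were lower (median -0.08). Tap2, a subunit of the peptide transporter, was at 8.33, 8.47, 8.43 and 8.38 with SB00526222 and at 8.54, 8.681 and 8.52 with vehicle. The difference was -0.16 (SE 0.09), and all treated arrays were lower, as for 0.966% of all genes tested. Of 7 tested interferon-gamma-induced GTPases and chemokines 4 were lower, with a median of -0.08.

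Myc, the growth-promoting transcription factor, lay lower in every SB00526222 array. Its values were 10.32, 10.40, 10.25 and 10.37 with SB00526222 and 10.64, 10.51 and 10.50 with vehicle, a difference of -0.24 (SE 0.14, 95% interval -0.52 to 0.04). Such groups without overlap, lower with SB00526222, made up 0.966% of all genes tested. Against all vehicle arrays of J23 and J25, early ones included, the difference for Myc was 0.03, of opposite sign. Of the 16 genes of its list, which includes polyamine and ribosome biogenesis genes, 13 were lower (median -0.09), against 59.6% of all genes. Myd88, the adaptor of most toll-like receptors, and Msr1, a scavenger receptor, were also lower in all 4 arrays, with differences of -0.13 and -0.14. Myd88 was at 10.57, 10.58, 10.50 and 10.39 with SB00526222 and at 10.60, 10.67 and 10.60 with vehicle, so the gap was narrow. Among 14 inflammatory genes 10 were lower and 4 higher (median -0.06), with Il1a, which encodes interleukin-1 alpha, at 0.40 and overlapping.

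The remaining lists also held no called gene. Clock genes, which can move with the hour of sampling, had 11 of 15 members higher (median 0.07), with Cry1 at -0.22 and Per3 at 0.18. Of 14 genes of the unfolded protein and amino acid stress response 8 were lower and 6 higher (median -0.02). Herpud1, which helps degrade misfolded proteins, was at -0.27 (SE 0.13), while Sesn2, a stress-induced regulator of nutrient signalling, was higher in all 4 arrays at 0.30 (SE 0.14). Both were under an unadjusted p of 0.05. Groups without overlap and higher with SB00526222, as for Sesn2, made up 0.718% of all genes tested. Large peritoneal macrophage identity genes numbered 20 tested, with 13 higher and 7 lower (median 0.02).

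**Figure D3:**
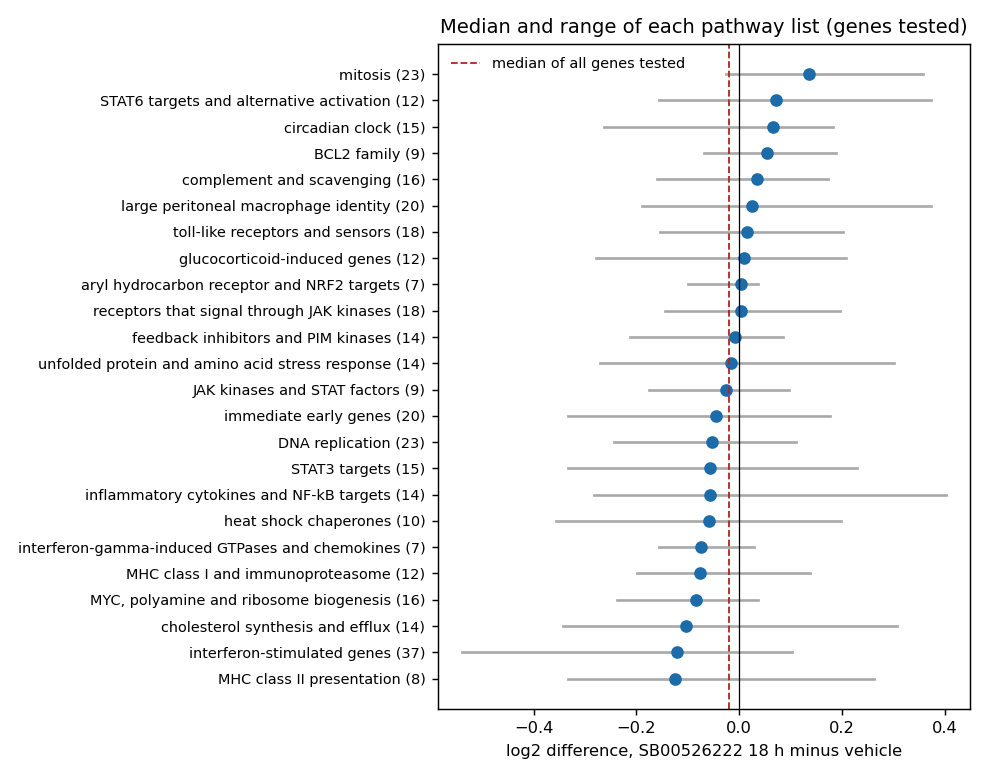
Each row is a pathway list with its number of tested genes in brackets. The point is the median and the grey line the range of the log2 difference of SB00526222 at 18 h minus vehicle, and the dashed line is the median of all genes tested at -0.02; the medians run from -0.12 for interferon-stimulated and MHC class II genes to 0.14 for mitosis genes.

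Mitosis genes were higher in 22 of 23 members, with a median of 0.14 and 0 past an unadjusted p of 0.05. Their mean was 8.682, 8.874, 8.748 and 8.767 with SB00526222 and 8.18, 8.48 and 9.11 with vehicle, so the vehicle arrays lay on both sides of the treated ones. Ccnb2, a mitotic cyclin, was at 11.25, 11.41, 11.40 and 11.31 with SB00526222 and at 10.46, 10.93 and 11.53 with vehicle (difference 0.33, SE 0.36). Kif20a, a mitotic kinesin, differed by 0.36. The lean rested on 1 array: without vehicle replicate 1 the median was -0.19, with 22 of 23 members lower, and without vehicle replicate 3 it was 0.46. Within J23 the median was 0.62, and within J25 it was -0.02. DNA replication genes were lower in 19 of 23 members (median -0.05), but of opposite sign by experiment, with 19 of 23 higher within J23 (median 0.07) and 22 of 23 lower within J25 (median -0.15).

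The genes with the highest and lowest statistics did not pass either. Orm3, an orosomucoid whose family encodes acute-phase plasma proteins, had the highest. It was at 7.27, 6.92, 7.31 and 7.10 with SB00526222 and at 6.43, 6.569 and 6.85 with vehicle. Orm3 lay near the lower limit for testing. Its late vehicle intensities before log2 were 86.3, 94.94 and 115.6, below the lowest array median of 123.2. It was tested because of the arrays in which it was high, so its rank is not support for a difference. All 4 treated arrays lay above all 3 vehicle arrays, as for 0.718% of genes tested, and the difference was 0.52 (SE 0.17, interval 0.17 to 0.86, adjusted p = 0.9998 by limma). It was 0.66 within J23 and 0.49 within J25. Orosomucoid genes are close copies of each other, and whether the probes also read its relatives was not tested.

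The next 7 highest were H2bc4, A830092H15Rik, Zfp212, Tmc3, Rin3, Dzip1 and Rbpms, at differences of 0.24 to 0.48. H2bc4, a histone gene of a multi-copy family, was at 9.19, 9.45, 9.50 and 9.37 with SB00526222 and at 8.93, 8.741 and 8.98 with vehicle (difference 0.48, SE 0.17). Rin3, a regulator of Rab5 in endocytosis, was at 9.87, 9.85, 10.10 and 10.16 with SB00526222 and at 9.57, 9.75 and 9.81 with vehicle (difference 0.33, SE 0.13). H2bc4, Rin3 and A830092H15Rik were higher without overlap, as were 0.718% of all genes tested. They were picked for high statistics in this comparison, so the lack of overlap is not further support for a difference. The late vehicle intensities of A830092H15Rik before log2 were 120.8, 117.7 and 117.6, below the lowest array median of 123.2. Those of Zfp212 were 134.6, 130 and 93.64.

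The lowest statistics belonged to Rbfox2, Luzp1, Pgap4, Tgs1, Dcun1d4, Sec24d, Hspa2 and Ripor2. Rbfox2, a splicing regulator, had the lowest p of all genes, 0.000978 before adjustment. It was at 7.16, 7.21, 7.48 and 7.29 with SB00526222 and at 7.62, 7.53 and 7.65 with vehicle, a difference of -0.29 (SE 0.08). Luzp1, a leucine zipper protein, was at 7.74, 7.79, 7.42 and 7.52 with SB00526222 and at 8.41, 8.02 and 7.75 with vehicle, a difference of -0.48 (SE 0.15). The other 6 differed by -0.24 to -0.41. Rbfox2, Dcun1d4 and Ripor2 were lower without overlap, as were 0.966% of all genes tested. These genes too were picked for their statistics in this comparison, so the lack of overlap is not further support.

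The early arrays allow the difference at 18 h to be set against that at 3 or 6 h. SB00526222 at 3 or 6 h against early vehicle gave 0 called genes too, with 267 higher (2.46%) and 297 lower (2.73%) at an unadjusted p of 0.05, together 564 (5.19%), and a smallest adjusted p of 0.9131. Among interferon-stimulated genes 36 of 37 were lower (all genes 50.7%), 21 of them at an unadjusted p of 0.05 (all genes 2.73%), with a median of -0.38. Rtp4 was at 8.04, 8.30 and 9.68 with SB00526222 early, and at 11.07, 9.57, 9.40, 9.36, 9.59 and 9.44 with vehicle early (difference -1.13, SE 0.39, adjusted p = 0.913 by limma). The 6 h array of J23 had the high value of 9.68, and the early vehicle array with 11.07 is replicate 1 of J12. Without that array the median of the list was -0.21, with 12 members lower at an unadjusted p of 0.05. That count was 7 without SB00526222 early replicate 1 and 12 without its replicate 2. It was 24 without vehicle early replicate 4, which stood apart on the first component.

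The late effect minus the early effect was tested as 1 contrast. It called 0 genes, with 115 at an unadjusted p of 0.05 (1.06%) and a smallest adjusted p of 0.9999. For the interferon-stimulated genes the late difference lay above the early one in 33 of 37 members (45.9% of all genes were above 0), with a median of 0.28 and 0 members at an unadjusted p of 0.05. The median was 0.11 without replicate 1 of the early vehicle and 0.45 without replicate 3 of SB00526222 early. It was 0.36 without replicate 4 of the early vehicle. For Rtp4 the late effect of -0.54 stood against an early effect of -1.13, a contrast of 0.59 (SE 0.56, 95% interval -0.56 to 1.74), so a difference between the hours was not shown. Without J12 the contrast for Rtp4 was -0.58, of opposite sign, with SB00526222 early left at 1 array, from J23.

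The 8 genes with the most extreme statistics of this contrast were Arglu1, Pigh, Zfp212 and Mir99a above 0, and Hspa2, Tbcc, Sec24d and Prr3 below 0. Mir99a, a microRNA gene, was at 7.82, 6.81, 8.01 and 7.54 with SB00526222 at 18 h, and at 7.45, 7.40 and 7.30 with late vehicle. It was at 5.95, 6.24 and 6.25 with SB00526222 early, below all 6 early vehicle arrays, which lay between 6.80 and 7.99. Before log2 these SB00526222 early intensities were 62.03, 75.58 and 76.12, below the lowest array median of 123.2. Mir99a was tested because of the arrays in which it was high, so its rank and this gap are not support for a difference. Its contrast was 1.15 (SE 0.41, 95% interval 0.297 to 1.999). MHC class II genes had a median contrast of -0.51, with 5 of 8 below 0, 1 of them at an unadjusted p of 0.05 (all genes 0.69% below 0 at that level, and 54.1% below 0 at any size). Their early median was 0.43, with 7 of 8 above 0 (all genes 49.3%). The median contrast was -0.28 without vehicle late replicate 2. B cells also carry class II, and their markers had 4 of 4 tested members below 0 in the contrast (median -0.33) and 4 of 4 above 0 early (median 0.13). Markers of small macrophages, monocytes and dendritic cells had 6 of 7 above 0 early (median 0.15). The mean of the 11 measured B cell markers was 6.98, 6.21 and 6.59 with SB00526222 early, and between 6.23 and 6.81 with vehicle early. The part of these cells in the class II values was not tested. Adjusted p was above 0.99 by limma for each gene named here.

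Orm3 lay in the same direction early and late. With SB00526222 early it was at 7.14, 7.09 and 7.53, and with early vehicle at 6.21, 6.48, 6.29, 7.22, 6.91 and 6.70 (difference 0.70, SE 0.16, adjusted p = 0.913 by limma). The single vehicle array of J23 at 6 h reached 7.22, within the range of the treated arrays. At 18 h it was at 7.44 and 6.70 after 14 treatments, the second of these within the range of the late vehicle arrays. With SB00513404 it was at 7.02, 7.35 and 6.92, and all of these groups share the late vehicle.

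**Figure D4:**
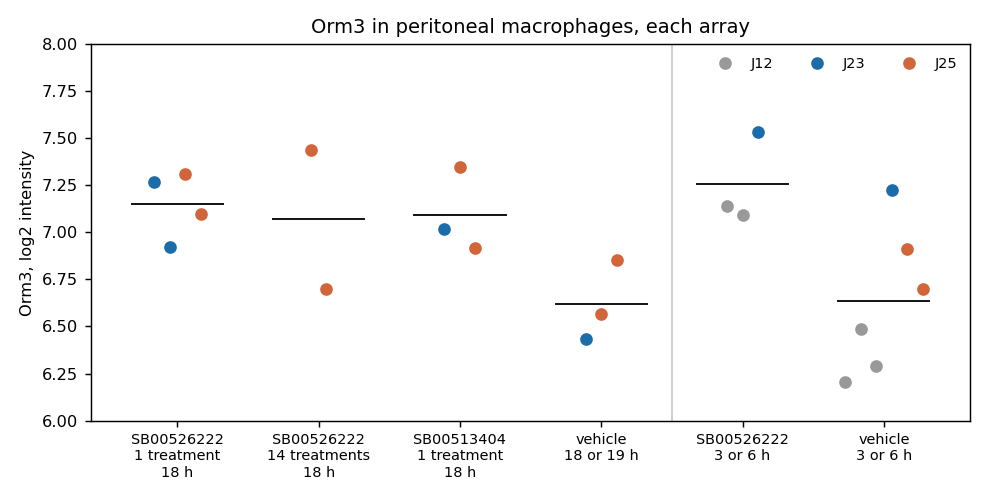
The y axis is log2 intensity of Orm3, each point is 1 array coloured by experiment, and the bar is the group mean. The 4 SB00526222 arrays at 18 h sit between 6.92 and 7.31, above the 3 late vehicle arrays at 6.43 to 6.85.

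SB00513404 allows a comparison between 2 compounds at a matched hour, number of treatments and pair of experiments, and this was the only pair of compounds compared. No dose is given for either, so it is not known whether doses match. SB00526222 minus SB00513404 called 0 genes, with a smallest adjusted p of 0.29, while 1836 genes had an unadjusted p under 0.05 (16.9%), 1552 of them higher with SB00526222 (14.3%) and 284 lower (2.61%). The median over all genes was 0.09. All 3 SB00513404 arrays had first component scores above 20 (36.65, 21.35 and 20.82), against 1 of 4 SB00526222 arrays. With that component as a covariate 187 genes were under 0.05, and 362 were without SB00513404 replicate 2. The component was computed from these same arrays, so the covariate can also take out a difference between the compounds. Whether the component is technical was not tested. With array weights 2777 genes were called, 2200 higher and 577 lower.

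Interferon-stimulated genes did not separate the compounds. Their mean was 8.15, 8.18, 8.26 and 8.33 with SB00526222 and 8.47, 7.86 and 8.19 with SB00513404, which spread more widely. Of 37 members 24 were higher with SB00526222 (66.1% of all genes) and the median was 0.08, which was -0.08 without SB00513404 replicate 2 and 0.26 without its replicate 1. Rtp4 was at 9.70, 7.28 and 8.84 with SB00513404, on both sides of the SB00526222 arrays (difference 0.22, 95% interval -0.62 to 1.07). Oasl2 differed by -0.02 (interval -0.74 to 0.70), Myc by -0.02 (interval -0.30 to 0.26) and Orm3 by 0.04 (interval -0.30 to 0.39). These intervals do not show that the compounds act alike.

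The 4 genes highest with SB00526222 in this comparison were Tbc1d1, Tnfrsf11a, Slc25a51 and Ppox. Tbc1d1, a Rab GTPase-activating protein of glucose uptake, was at 9.66, 9.66, 9.33 and 9.63 with SB00526222 and at 9.20, 8.83 and 9.17 with SB00513404 (difference 0.49, SE 0.11, adjusted p = 0.29 by limma). Tnfrsf11a, which encodes the receptor RANK, was at 8.02, 8.28, 8.07 and 8.47 with SB00526222 and at 7.74, 7.76 and 7.78 with SB00513404 (difference 0.48, SE 0.12, adjusted p = 0.29 by limma). Slc25a51, a mitochondrial carrier, and Ppox, an enzyme of haem synthesis, were higher by 0.36 and 0.39. Svopl, Hrct1, Slc22a13 and Tcl1b5 were lowest, by -0.37 to -0.42. Mitosis genes were higher in all 23 members (median 0.37) and DNA replication genes in 20 of 23 (median 0.36), where 66.1% of all genes were higher. At an unadjusted p of 0.05, 1 mitosis gene and 3 DNA replication genes were higher, against 14.3% of all genes. Neither list exceeded the share of all genes at that level.

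The number of treatments was compared within the compound, 1 against 14 at 18 h. No gene was called (smallest adjusted p 0.232), and 603 were under an unadjusted p of 0.05 (5.55%), 327 of them higher after 1 treatment (3.01%) and 276 lower (2.54%). All 23 mitosis genes were higher after 1 treatment (41.5% of all genes), 20 of them at an unadjusted p of 0.05, with a median of 1.38. All 23 DNA replication genes were higher too, 16 of them at that level, with a median of 0.70. All genes tested had a median of -0.04. With array weights 139 genes were called, 109 higher and 30 lower.

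On the mean over mitosis genes the arrays after 1 treatment lay at 8.682, 8.874, 8.748 and 8.767, and those after 14 treatments at 7.03 and 7.76, without overlap. The late vehicle arrays were at 8.18, 8.48 and 9.11, and the J25 pair of them, which also had 14 treatments, at 8.48 and 9.11. Within J25 alone the values were 8.75 and 8.77 after 1 treatment against 7.03 and 7.76 after 14. Without replicate 1 of the 14-treatment group the median of the mitosis list was 1.01, and 7 mitosis genes, 3 DNA replication genes and 135 of all genes were under an unadjusted p of 0.05. All 23 members of both lists were still higher after 1 treatment. The median of the mitosis list was 1.70 without replicate 2.

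**Figure D5:**
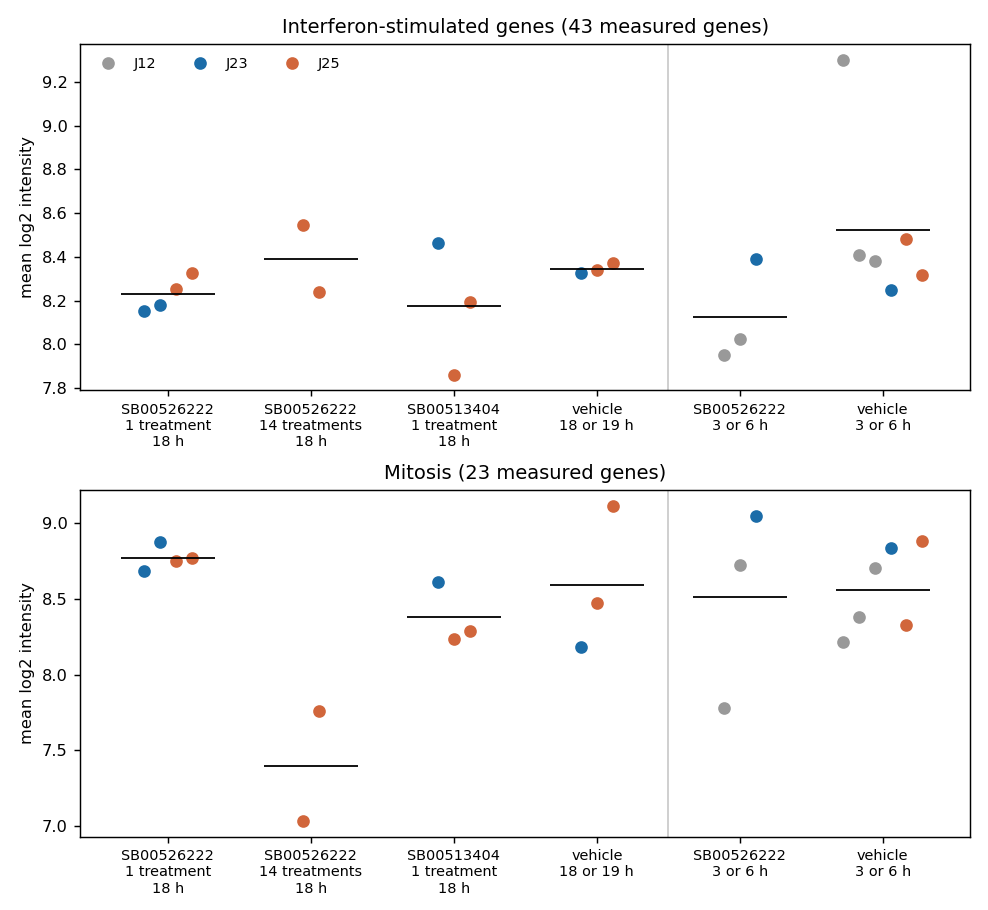
The y axis is the mean log2 intensity over the measured genes of the list, each point is 1 array coloured by experiment (grey J12, blue J23, orange J25), and the bar is the group mean. SB00526222 after 1 treatment overlaps vehicle in both panels, and in the mitosis panel the 2 arrays after 14 treatments lie lowest, at 7.03 and 7.76.

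Dtl, E2f7, Mad2l1 and Ncaph had the highest statistics after 1 treatment. Dtl, part of a ubiquitin ligase that acts in S phase, was at 8.05, 8.28, 8.75 and 8.53 after 1 treatment and at 6.68 and 7.59 after 14 (difference 1.37, SE 0.30, adjusted p = 0.258 by limma). Mad2l1, of the spindle checkpoint, was at 9.60, 9.81, 10.17 and 9.79 after 1 treatment and at 8.34 and 8.76 after 14. Mki67, which encodes the proliferation marker Ki-67, was at 9.97, 10.01, 10.18 and 10.19 after 1 treatment and at 6.86 and 9.25 after 14 (difference 2.04, SE 0.53). Bub1 and Kif11, of the mitotic spindle, differed by 1.85 and 1.87, and Ccnb2 by 1.71. Mki67, Bub1 and Kif11 were chosen for mention after their values were seen.

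Phf1, Hspa1a, Cd209b and Fam214b were lowest after 1 treatment. Hspa1a, which encodes an inducible heat shock chaperone, was at 7.84, 7.9997, 7.95 and 8.29 after 1 treatment and at 8.85 and 9.20 after 14 (difference -1.11, SE 0.25, adjusted p = 0.258 by limma). Phf1, a Polycomb-associated protein, was at 8.38, 8.32, 8.10 and 8.34 after 1 treatment and at 8.722 and 8.86 after 14 (difference -0.52, SE 0.10, adjusted p = 0.232 by limma). All 15 tested STAT3 targets were lower after 1 treatment than after 14 (median -0.33), where 58.5% of all genes were lower. At an unadjusted p of 0.05, 3 of them were lower, against 2.54% of all genes. Without replicate 1 of the 14-treatment group 12 were lower, 1 of them at that level. Without replicate 1 of the 1-treatment group 12 were lower, 6 of them at that level. Interferon-stimulated genes were lower in 31 of 37 (median -0.27), and the median was -0.07 without replicate 1 of the 14-treatment group and -0.41 without its replicate 2. Rtp4 differed by -0.44 (SE 0.48).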

How the data were processed

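The authors deposited 1 intensity per probe set and array. Affymetrix Power Tools and RMA, a method of background correction, normalization and summary, are named in the submitters' processing notes, without versions. Which arrays were normalized as a set is not stated there. The deposited intensities were taken as linear, because medians of the 33 peritoneal arrays ran from 123.2 to 142.3 and maxima from 17612 to 20533, and log2 was taken without a pseudocount (lowest deposited intensity, 5.11). Of 24922 probe sets, 21425 carried 1 gene symbol, 1399 several and 2098 none, and only the first were used. Each of 19752 genes was represented by its brightest probe set on average across the 33 arrays. A gene was tested if it was above its array's median in at least 3 arrays (10871 genes). No 2 of the 168 arrays were identical (highest correlation 0.9972).

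All 33 peritoneal arrays, in 10 groups, were fitted with limma 3.58.1 in R 4.3.3, with a mean per group and the experiment (the first part of the title) as a fixed effect. Moderated two-sided tests had 21 residual and 5.17 prior degrees of freedom, and Benjamini-Hochberg adjustment ran over all genes tested. The pipeline was run on simulated data whose noise was independent between genes, unlike these arrays. That run does not show that the p-values are calibrated here. Precision is limited by the number of arrays. Lists are described by counts and medians, beside the same over all genes. The genes named are the 8 highest and 8 lowest statistics of the comparison with vehicle, up to 3 members per pathway list, the 4 highest and 4 lowest of each other contrast, and a fixed set (JAK, STAT, SOCS and interferon genes). Others are marked as chosen after their values were seen. The members and lists were chosen with earlier results of these data known. Alternatives included no experiment term, no filter, quantile normalization, array weights, the mean of probe sets, subsets of experiments and leaving out each array.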

Additional observations from a re-analysis of the deposited data

Results flagged for a closer look

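In 4 of the 76 genes examined, 1 array lay far from the other 3 of the SB00526222 group at 18 h, its gap to the nearest array being more than 0.829 of the group's range. The share was 0.945 for Oas1a, where replicate 2 was lowest at 8.25. It was 0.922 for Dcun1d4, where replicate 4 was highest at 7.11. It was 0.904 for Tbc1d1 and 0.892 for Tyk2, in both of which replicate 3 was lowest, at 9.33 and 9.0. Chance gives such a gap in about 1 in 20 groups of 4.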

How the results depend on the processing

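By limma, no gene was called in any of the 4 contrasts under the alternatives tried, except with array weights, whose fit stopped before it converged. These called 2 genes against vehicle, 2777 between compounds and 139 between 1 and 14 treatments. Leaving out each array in turn called 0 genes in each contrast, with 58 to 144 genes under an unadjusted p of 0.05 against vehicle, 362 to 3041 between compounds, 135 to 742 between treatments and 64 to 530 between hours. Over the other settings the median of the interferon-stimulated genes against vehicle ran from -0.16 to -0.10. Of 1556 recomputed gene values 1499 kept their direction, and 57 values of 14 results did not. No paired analysis was possible because the labels carry no replicate numbers that groups share. The number of arrays limits the precision, and the cause of the changes below was not tested.

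Against vehicle, all vehicle arrays of J23 and J25 gave Gata6 0.1461, Jak1 0.0371, Jak2 0.0144 and Myc 0.0267. Quantile normalization gave Gata6 0.0066, Irf9 0.0209 and Jak1 0.0129. No experiment term gave Irf9 0.0306, Jak1 0.0146 and Tyk2 -0.0020. The first component as a covariate gave Gata6 0.0028, Irf9 0.0131 and Jak1 0.0058. J25 alone gave Irf9 0.0497 and Jak1 0.0094, and within J23 Gata6 was 0.0348 and Tyk2 -0.1335. The 7 arrays alone gave Irf9 0.0059 and Tyk2 -0.0387, and J23 with J25 gave Irf9 0.0072. Array weights gave Tyk2 -0.0334, and Tyk2 was -0.0552 without the late arrays standing apart. Leaving out single arrays gave -0.0853 to 0.6452 for Ccnb2, -0.0186 to 0.6402 for Kif20a, -0.0731 to 0.0257 for Gata6, -0.1130 to 0.0734 for Irf9, -0.0619 to 0.0479 for Jak1 and -0.1625 to 0.1410 for Tyk2. Between compounds, array weights gave Rtp4 -0.0942, the component covariate gave Rtp4 -0.0164 and Oasl2 0.1077, and no experiment term gave Myc 0.0014 and Oasl2 0.0324. Leaving out single arrays there gave -0.3776 to 0.7636 for Rtp4, -0.3891 to 0.3394 for Oasl2, -0.0658 to 0.0211 for Myc and -0.0365 to 0.1813 for Orm3. Between treatments it gave -1.0218 to 0.1417 for Rtp4, and between hours Rtp4 was -0.5790 without J12.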
